A study of Homo sapiens with 8 samples.

Results

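The NDRG (N-myc downstream-regulated gene) family comprises NDRG1, NDRG2, NDRG3 and NDRG4, and it was followed in RNA of UM-RC-2 cells that expressed VHL or a construct that the labels name VEC. Members were taken by gene symbol. All 4 were present among the 43682 symbols counted, and all 4 passed the filter on low counts that left 24417 genes. UM-RC-2 is an established line of clear cell renal cell carcinoma with a mutated VHL gene per the labels, so both groups carry that mutation. Stable lines were made with lentivirus and blasticidin at 10 µg/ml, and whether they are clones or pools is not given in the sources used here. The VEC and VHL groups had 2 RNA libraries each, 1 per replicate number. The text for the whole series gives total RNA for all RNA libraries, but the molecule label of each library differs by replicate number. It is total RNA for both replicate 1 libraries and polyA RNA for both replicate 2 libraries. VHL was therefore compared with VEC within each replicate number. Nothing in the labels says that the replicates were separate cultures, so p-values concern these libraries only. In the fit that takes out differences between replicate numbers, they rest on a spread borrowed from all genes.

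NDRG proteins have the fold of alpha/beta hydrolases without a known enzymatic activity. NDRG1 is a stress-response gene induced by hypoxia-inducible factors (HIF), by iron depletion and by metals, and its protein is phosphorylated by the kinases SGK1 and GSK3. The VHL protein marks HIF alpha subunits for degradation when oxygen is present, and cells that lack VHL function keep HIF target genes on. NDRG2 is best known from brain, muscle and heart and is often low in carcinomas. NDRG3 protein is hydroxylated by EGLN1 and removed through VHL, and it binds lactate, which is regulation that counts of RNA do not measure. NDRG4 is known mainly from heart and brain.

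Library totals ran from 16230291 to 50027348 counts, and both replicate 2 libraries were the deeper ones. Protein-coding genes took 95.5% to 96.0% of counts in replicate 1 and 65.6% to 71.8% in replicate 2. The pair labelled polyA RNA thus had the lower share, and whether the molecule labels are right was not tested. Detected genes numbered 21906 (VEC) and 22309 (VHL) in replicate 1 and 29616 and 29551 in replicate 2. Levels are given as CPM, counts scaled to the size of the library, with TMM normalisation between libraries. On log2(CPM + 1), libraries of the same group correlated at only 0.504 (VEC) and 0.534 (VHL, Pearson). Libraries of the same replicate number correlated at 0.991 (replicate 1) and 0.978 (replicate 2). What sets the replicate numbers apart was not tested. VHL transcripts were higher in the library labelled VHL of each pair, by 1.98 (replicate 1) and 0.77 (replicate 2) on the log2 scale. The labelled cell type was checked against markers. The kidney factor PAX8 was present at 40.8 to 75.9 CPM, and all 4 endothelial markers had 0 counts in every library. Of the 10 kidney and renal carcinoma markers, 8 were detected in replicate 1 and 10 in replicate 2. EPCAM had at most 2 counts. NNMT had 0 counts in replicate 1 and 1.27 (VEC) and 1.10 CPM (VHL) in replicate 2. PAX2 had 1.34 and 1.18 CPM in replicate 1 and 9.28 and 5.66 CPM in replicate 2.

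Promoter windows are shown for the paralogues that the RefSeq promoter table covers (GRCh38.p14, 250 bases before to 50 after a start site), to set beside their expression values given further on. The table matched 2 of the 4 members, NDRG2 with 5 windows and NDRG4 with 4. They were searched on both strands for ACGTG and GCGTG, the core letters of the hypoxia response element to which HIF binds. The first of these also lies within the E-box CACGTG. Of 35116 windows of 300 bases in the table, 48.4% held at least 1 match and 10.1% at least 3. For NDRG2, 3 of the 5 windows held 1 match each, and some of its windows overlap. For NDRG4, 1 of the 4 windows held 4 matches and the others held 0. The window of each gene below has its matches in capitals, which read CACGC where the match is on the other strand. The NDRG2 window lies at chr14:21025056-21025355 on the minus strand, and the NDRG4 window at chr16:58463465-58463764 on the plus strand.
NDRG2: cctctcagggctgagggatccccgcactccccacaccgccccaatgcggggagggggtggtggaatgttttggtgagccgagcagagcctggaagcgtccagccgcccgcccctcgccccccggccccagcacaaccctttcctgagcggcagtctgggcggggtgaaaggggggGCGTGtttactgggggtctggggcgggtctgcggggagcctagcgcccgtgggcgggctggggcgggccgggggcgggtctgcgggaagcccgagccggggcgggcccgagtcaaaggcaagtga
NDRG4: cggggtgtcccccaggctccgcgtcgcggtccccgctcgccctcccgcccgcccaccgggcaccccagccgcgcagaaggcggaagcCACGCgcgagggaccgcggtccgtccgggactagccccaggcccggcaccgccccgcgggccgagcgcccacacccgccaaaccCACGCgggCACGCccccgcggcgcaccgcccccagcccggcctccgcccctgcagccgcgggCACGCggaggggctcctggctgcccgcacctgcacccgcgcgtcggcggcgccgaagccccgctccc
A match is a description of letters and not a binding site.

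NDRG1 transcripts fell in cells expressing VHL, in both replicate numbers. In replicate 1 the VEC library had 447 CPM (10355 counts) and the VHL library 130 CPM (2417 counts). In replicate 2 the VEC library had 281 CPM (12810 counts) and the VHL library 65.2 CPM (2665 counts). Both VHL libraries lay below both VEC libraries, without overlap, which held for 3.39% of tested genes in that direction. The group values were 364 ± 118 CPM in VEC and 97.4 ± 45.5 CPM in VHL (SD, n = 2 per group).

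The NDRG1 level was 3.45-fold lower in VHL within replicate 1, with a 95% interval of 3.30 to 3.61 (exact binomial, counting error only). Within replicate 2 it was 4.30-fold lower (4.13 to 4.49). The fall was thus somewhat deeper in the polyA-labelled pair, beyond counting error. With 1 pair per labelled kind of RNA, there is no replicate check of that difference. The fit across all genes with the replicate number as a block gave a log2 change of -1.95 ± 0.25 (SE, n = 2 per group, quasi-likelihood test in edgeR, adjusted p = 1.60e-12 by Benjamini-Hochberg), a 3.86-fold fall. Genes called lower in VHL at an adjusted p under 0.05 made up 2.35% of those tested, and calls in either direction 3.1%. By p-value NDRG1 ranked 33 of 24417, and 130 tested genes had a more negative log2 change, 102 of them called.

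Without the replicate term, NDRG1 changed by -1.90 ± 0.62 and was not called (edgeR adjusted p = 0.999991, unadjusted p = 0.0445). That fit called 0% of genes, with 22 genes (0.0901%) at an unadjusted p under 0.05, and its common dispersion was 2.57, against 0.0251 with the block. In the blocked fit 1 residual degree of freedom is left and the spread is borrowed from all genes, so the SE of a gene says little about that gene's own variability.

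**Figure D1:**
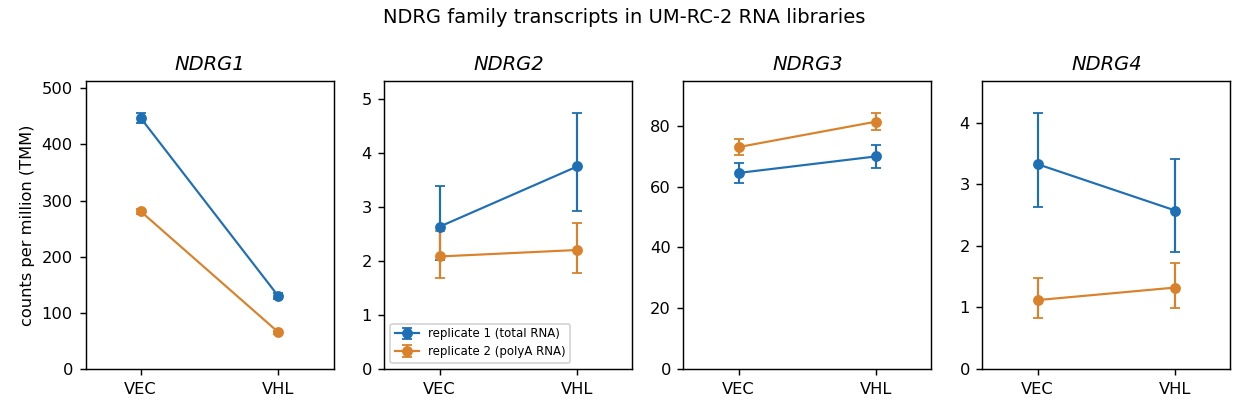
Levels of the 4 NDRG genes in CPM (TMM-scaled, linear axes from 0, a separate scale per gene) in VEC and VHL libraries. Lines join libraries of 1 replicate number and bars are exact 95% Poisson intervals of the count, which cover counting error only. NDRG1 drops from 447 to 130 CPM and from 281 to 65.2 CPM, and the other genes show no drop of that size.

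NDRG3, the paralogue with the most reads, was not called. Its replicate 1 libraries had 64.5 CPM (VEC, 1493 counts) and 70.0 CPM (VHL, 1305 counts). Its replicate 2 libraries had 73.0 CPM (VEC, 3330 counts) and 81.4 CPM (VHL, 3325 counts). The VHL library was the higher one in both pairs, but VHL of replicate 1 lay below VEC of replicate 2, so the groups overlapped. With CPM taken over protein-coding reads alone, the replicate 1 values were 73.0 and 84.2 and the replicate 2 values 101 and 99.3, so the direction in replicate 2 turned with the scale. Counting intervals of the within-pair log2 change on the TMM scale were 0.0089 to 0.23 in replicate 1 and 0.087 to 0.23 in replicate 2, both above 0. The blocked log2 change was 0.14 ± 0.21 (edgeR adjusted p = 0.939), with a 95% interval of -0.28 to 0.55. This interval, like those of NDRG2 and NDRG4 below, borrows its spread from all genes and says little about the gene's own variability. With that limit, it leaves room for a rise or a fall of modest size and does not reach the size of the NDRG1 change.

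NDRG2 had few reads. Its counts in replicate 1 were 61 in VEC and 70 in VHL, or 2.64 and 3.75 CPM. In replicate 2 they were 95 and 90, or 2.08 and 2.20 CPM. Both VHL values were above the VEC value of their pair, by 0.50 and 0.08 on the log2 scale, and the groups overlapped. Over protein-coding reads alone the values were 2.98 and 4.52 in replicate 1 and 2.89 and 2.69 in replicate 2, where VHL was then the lower one. Counting intervals of the within-pair log2 change on the TMM scale included 0 in both pairs (-0.0063 to 1.03 and -0.35 to 0.51). The blocked log2 change of 0.29 ± 0.43 was not called (edgeR adjusted p = 0.935), and its 95% interval ran from -0.55 to 1.13. In the RefSeq order NDRG2 overlaps other genes, of which only ARHGEF40 was tested (228 and 315 counts in replicate 1, 171 and 181 in replicate 2). How reads in such overlaps were assigned, and whether strand was used, is not given in the sources used here, so the NDRG2 counts are uncertain.

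NDRG4 was also sparse and had no common direction. The replicate 1 values were 3.33 CPM for VEC (77 counts) and 2.57 CPM for VHL (48 counts). The replicate 2 values were 1.12 CPM for VEC (51 counts) and 1.32 CPM for VHL (54 counts). The within-pair log2 changes were -0.36 and 0.23, of opposite sign, and counting intervals included 0 in both pairs (-0.92 to 0.17 and -0.34 to 0.82). The blocked estimate was -0.07 ± 0.47 (edgeR adjusted p = 0.992), with a 95% interval of -0.99 to 0.85.

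The family thus had 1 of 4 members called, NDRG1, beside 3.1% of all tested genes called in either direction. A family of 4 is too small to read against that share. The members also differed in how their levels moved with the replicate number. From replicate 1 to replicate 2, the NDRG4 level changed by -1.52 in VEC and -0.93 in VHL on the log2 scale, which was larger than either of its within-pair changes. NDRG1 changed by -0.67 and -0.99 between replicate numbers, against within-pair changes of -1.79 and -2.10. NDRG2 changed by -0.33 and -0.75. On this TMM scale NDRG3 moved least, by 0.18 and 0.22. Over protein-coding reads alone, the VEC value of NDRG3 went from 73.0 to 101 and that of NDRG2 from 2.98 to 2.89. Which member moved least thus depended on the scale. With CPM taken over protein-coding reads alone, NDRG1 stood at 506 and 156 in replicate 1 and at 390 and 79.6 in replicate 2, so the order of the 4 libraries was the same on that scale. NDRG4 kept its directions there, at 3.76 and 3.10 in replicate 1 and 1.55 and 1.61 in replicate 2, whereas NDRG2 and NDRG3 turned in replicate 2 as given above.

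The ratio of NDRG1 reads to reads of a paralogue in the same library does not depend on scaling between libraries. Transcript lengths were not used here, so the ratio does not rank the genes by level, but its change between groups is free of length. In replicate 1 there were 6.94 NDRG1 reads for each NDRG3 read in VEC and 1.85 in VHL. In replicate 2 there were 3.85 in VEC and 0.802 in VHL, the only library with fewer NDRG1 than NDRG3 reads. The ratio was 3.74-fold lower in VHL within replicate 1 (95% interval 3.43 to 4.09, Fisher's conditional estimate, counting error only) and 4.80-fold lower within replicate 2 (4.50 to 5.12).

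Against NDRG2 the ratio was 4.92-fold lower (3.43 to 7.07) in replicate 1 and 4.55-fold lower (3.36 to 6.16) in replicate 2. Against NDRG4 it was 2.67-fold lower (1.82 to 3.89) and 5.09-fold lower (3.40 to 7.63). All 3 ratios share the NDRG1 counts. Both VHL libraries lay below both VEC libraries for each paralogue. On the log2 scale, with 0.5 added to counts, the mean difference VHL minus VEC was -2.08 for NDRG3, -2.24 for NDRG2 and -1.88 for NDRG4. An exact two-sided permutation test over all libraries, which did not use the replicate numbers, gave p = 0.333 for each. That is the smallest value that 2 against 2 libraries allow. The unequal change of NDRG1 and its paralogues therefore rests on its recurrence in both pairs and not on a test that could pass.

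**Figure D2:**
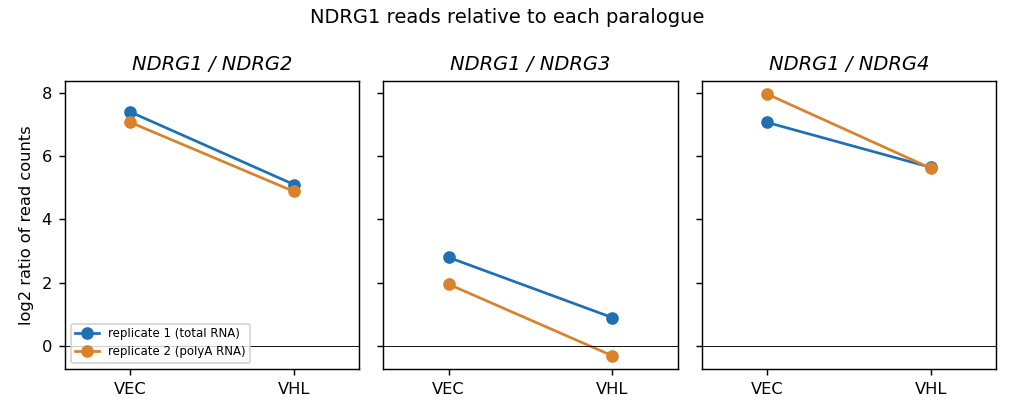
Log2 ratio of NDRG1 reads to reads of each paralogue in the same library (0.5 added to counts), in VEC and VHL, with lines joining libraries of 1 replicate number. All 6 lines slope down, by 1.42 to 2.35 log2 units, and the NDRG1 to NDRG3 ratio ends below 0 in VHL of replicate 2.

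NDRG1 was set beside other hypoxia-response genes, a list of 40 HIF targets such as glycolytic enzymes, prolyl hydroxylases and angiogenic factors. The list was chosen with earlier results of these data known, so its shares describe the chosen genes and are not a test. Of the 39 tested, 32 were called lower in VHL and 0 higher by edgeR with the block, against 2.35% of all tested genes called lower and 0.749% called higher. The median log2 change of the list was -1.31, against -0.03 over all tested genes, and 38 of the 39 were lower in both pairs, as were 35.9% of all tested genes.

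NDRG1 was among the stronger responders of this kind, and 8 list genes had a more negative log2 change. The most negative was that of CA9, a carbonic anhydrase, at -5.45. PFKFB4, which controls glycolytic flux, changed by -2.84, and PDK1, which restrains pyruvate dehydrogenase, by -2.28. List genes within 0.25 of the log2 change of NDRG1 were ADM, ALDOA, ALDOC, ANGPTL4, BNIP3 and EGLN3. BNIP3, a mitophagy receptor, had 728 CPM in VEC against 157 CPM in VHL, and then 562 against 162 CPM in the second pair. EGLN3, a HIF prolyl hydroxylase, changed by -1.93 and -1.97 in the pairs. Smaller falls were measured for LDHA (-1.59), SLC2A1 (-1.10) and VEGFA (-0.99), all called in the blocked edgeR fit. Without the block, 0 of the 39 were called by edgeR, at a list median of -1.35.

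**Figure D3:**
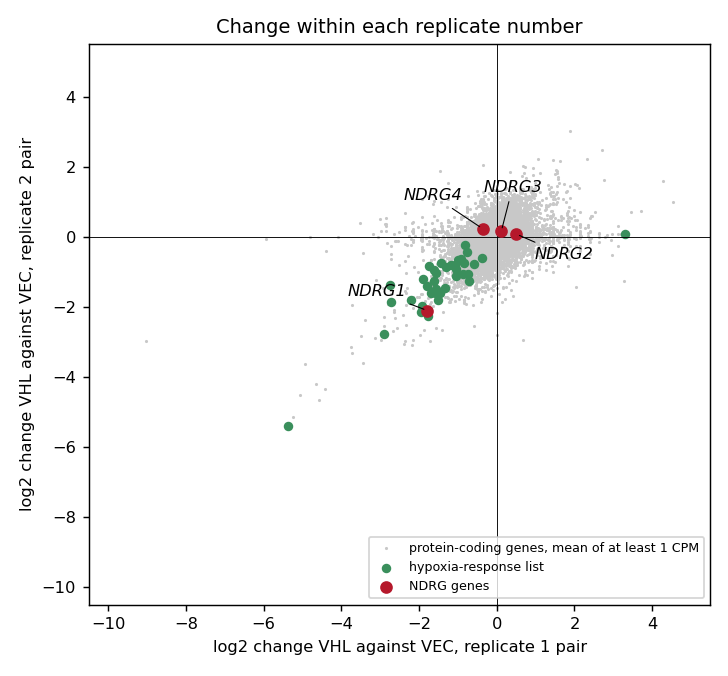
Log2 change of VHL against VEC within replicate 1 (x axis) and within replicate 2 (y axis), on CPM with a prior count of 2. Grey points are protein-coding genes with a mean of at least 1 CPM, green points the 39 hypoxia-response genes and red points the NDRG genes. NDRG1, at -1.79 and -2.10, lies among the hypoxia-response genes, and NDRG2, NDRG3 and NDRG4 lie near the origin within the mass of grey points.

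A list of 20 genes named for regulators and partners of NDRG proteins was chosen with earlier results of these data known. Its counts of calls are a description and not a test. It held the kinases SGK1, SGK2, SGK3, GSK3A and GSK3B, the MYC factors, HIF subunits and genes tied to NDRG3. Of 18 tested, 2 were called higher and 2 lower, beside 0.749% and 2.35% of all tested genes. MYCN, whose product gave the family its name, and SGK3 did not pass the filter. HIF1A, which encodes a HIF alpha subunit, rose by 1.10 ± 0.22 (edgeR adjusted p = 0.000103). VEC had 112 CPM and VHL 213 CPM in replicate 1, and the replicate 2 values were 41.5 and 100 CPM. EPAS1, which encodes the other main HIF alpha subunit, was at 10.5 and 11.3 CPM in replicate 1 and at 8.40 and 13.4 CPM in replicate 2, and was not called (edgeR adjusted p = 0.679).

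VHL itself, whose counts hold introduced and endogenous transcripts, was the other gene of the list called higher. Those called lower were EGLN1 and LDHA, which also belong to the hypoxia-response list. EGLN1, which encodes the hydroxylase of NDRG3 protein, changed by -1.10 ± 0.24 (edgeR adjusted p = 0.000389). LDHA, which encodes a lactate dehydrogenase subunit, had 1579 CPM (VEC) and 532 CPM (VHL) in replicate 1, and 1881 and 618 CPM in replicate 2. Kinases of NDRG1 were not called. SGK1 changed by -0.22 and 0.17 in the pairs (edgeR adjusted p = 0.997), and GSK3B by 0.30 and 0.61 (edgeR adjusted p = 0.372). MYC changed by 0.37 and 0.16 (edgeR adjusted p = 0.748).

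The genome neighbours of the NDRG genes were examined to see how local the NDRG1 change was. The 3 protein-coding genes on each side of each member in the RefSeq order gave 24 genes, of which 23 were found in the count files and 13 were tested. A single one was called, beside 3.1% of all tested genes, and 1 of 13 is too few to read against that share. It was ZFAT, a zinc finger gene that is the next but one neighbour of NDRG1. Replicate 1 had 19.2 CPM (VEC) and 13.2 CPM (VHL), and replicate 2 had 18.4 and 6.88 CPM, a blocked log2 change of -0.98 ± 0.27 (edgeR adjusted p = 0.0151). Its within-pair changes, -0.53 and -1.41, were both smaller in size than those of NDRG1. ST3GAL1, a sialyltransferase gene, lies between NDRG1 and ZFAT and was not called, at 68.3 (VEC) and 68.4 CPM (VHL) in replicate 1 and 57.3 and 61.0 CPM in replicate 2 (edgeR adjusted p = 0.990). On the other side of NDRG1, CCN4 and SLA had at most 4 counts in a library and TG at most 17. No tested neighbour of NDRG2, NDRG3 or NDRG4 was called.

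**Figure D4:**
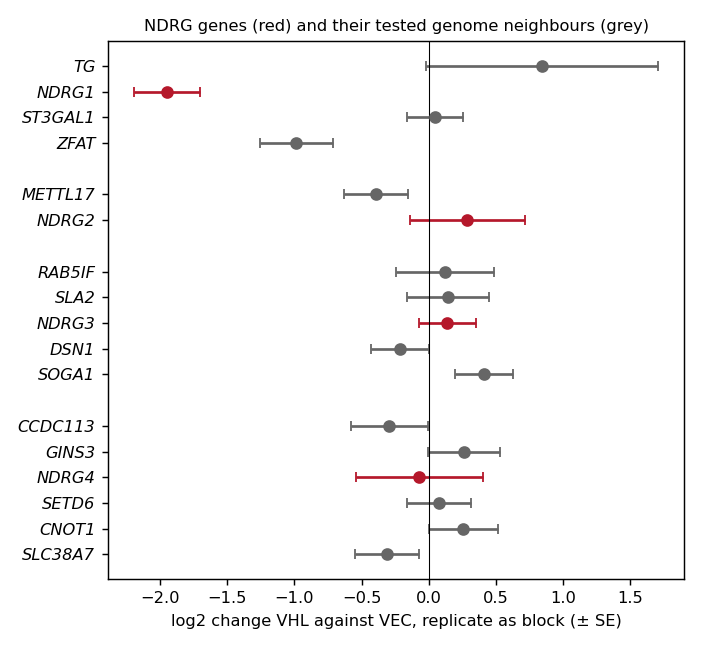
Blocked log2 change of VHL against VEC with its SE for the NDRG genes (red) and their tested protein-coding neighbours (grey), in RefSeq gene order within each group, under the names used in the count files. NDRG1 (-1.95) and ZFAT (-0.98) lie left of 0, with ST3GAL1 at 0.05 between them, and the neighbours of the other members scatter around 0.

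The genes whose profiles over the 4 libraries were most like that of each member were named by Euclidean distance between log2(CPM + 1) values centred on the gene's mean. Among 9170 protein-coding genes with a mean of at least 10 CPM, the nearest to NDRG1 was ZNF395, a zinc finger gene, at a distance of 0.18. It was followed by FUT11 (0.23), STC2 (0.39), PPFIA4 (0.39) and SLC1A1 (0.40). STC2, which encodes a secreted glycoprotein, is the only one of the 5 on the hypoxia-response list. SLC1A1, the aspartate and glutamate transporter gene of the series title, changed by -2.41 and -2.24 in the pairs. ZNF395 had 801 CPM (VEC) and 204 CPM (VHL) in replicate 1, then 436 and 113 CPM. FUT11, a fucosyltransferase gene, had 74.4 and 23.1 CPM, then 43.2 and 11.8 CPM.

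The nearest to NDRG3 were ATP6V0A2, PHF20, SEMA5A, ERP44 and TNFAIP2, all within 0.04. Of the 9170 candidates, 1564 lay within 0.5 of NDRG3, against 6 for NDRG1, so a short distance was common for NDRG3 and rare for NDRG1. NDRG2 and NDRG4 were compared with 1774 and 1592 genes of similar mean CPM, of which 270 and 287 lay within 0.5. The nearest to NDRG2 were EML2, INTS12, SOX13, CLYBL and MRTFA, at 0.05 to 0.11. The nearest to NDRG4 were PEX14, WIPI1, KCNS2, IGSF6 and GSTZ1, at 0.04 to 0.10. With 4 libraries and low counts, such distances describe these libraries only.

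**Figure D5:**
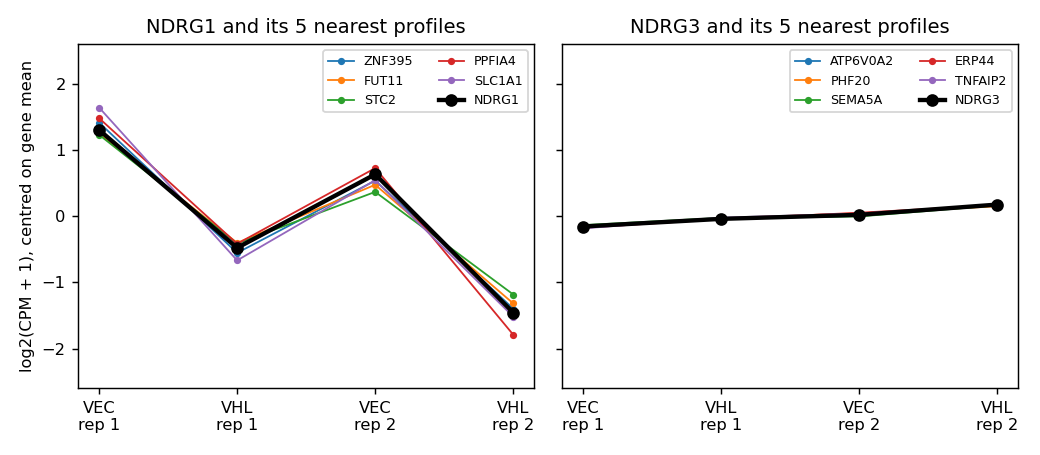
Profiles of log2(CPM + 1), centred on each gene's mean, over the 4 libraries for NDRG1 (left) and NDRG3 (right) in black, each with its 5 nearest protein-coding genes in colour. The NDRG1 group is high in both VEC libraries and low in both VHL libraries, and the NDRG3 group is nearly flat.

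Marker lists were summed to show what else differed between the groups. In bulk RNA, fewer cells of a type and less RNA per cell cannot be told apart. The 10 kidney and renal carcinoma markers summed to 1659 (VEC) and 1140 CPM (VHL) in replicate 1, and to 1165 and 738 CPM in replicate 2. Of these, 8 were detected in replicate 1 and 10 in replicate 2. VIM made up most of this sum, and the list shares CA9 with the hypoxia-response list. The 8 neural markers summed to 696 and 452 CPM in replicate 1 and to 366 and 259 CPM in replicate 2. Nearly all of that was NEFL, a neurofilament gene (695 and 451 CPM, then 359 and 254 CPM). SNAP25 had 0 counts in all libraries, and the other neural markers stayed at or below 4.60 CPM. Blood markers summed to at most 1.86 CPM in a library, with CD3E at 0 throughout. Muscle and heart markers summed to at most 0.0536 CPM in replicate 1 and to 30.5 and 18.5 CPM in replicate 2, from ACTC1 and DES, with TNNT2 at 0. The part of these shifts in the NDRG1 result was not tested.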

How the data were processed

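RNA-seq of 4 UM-RC-2 libraries was analysed from the authors' deposited raw counts per gene symbol, made from sorted hg19 alignments per the file headers. The submitters' processing notes name featureCounts and HOMER for these libraries. The aligner, annotation, strand setting and treatment of multi-mapping reads are not given in the sources used here. The labels call the libraries ChIP-seq in part and name an FPKM workbook, and the values are whole counts. H3K27ac tables were not used, since their regions carry no positions that could be matched to an NDRG gene.

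Genes passing filterByExpr were fitted in edgeR 4.0.16 (R 4.3.3) with TMM scaling, replicate number as a block and group. The quasi-likelihood F test was two-sided, with Benjamini-Hochberg adjustment over 24417 genes and calls at 0.05. Each SE was obtained from the size of the log2 change over the root of F. The code was tested on simulated data. DESeq2 1.42.0, other scalings and filters, protein-coding genes alone, the fit without the block and leaving out libraries were alternatives. The replicate number marks the labelled kind of RNA, and deviations from group means correlated at 0.982 over 21673 genes between same-numbered libraries. On log2(CPM + 1), the VEC libraries correlated at 0.504 with each other (Pearson), and the replicate 1 libraries at 0.991. Gene classes and neighbours came from RefSeq GRCh38.p14 by symbol or older symbol (97.8% of symbols matched).

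Members and lists were chosen with earlier results of these data known. Named genes were the 4 members, the 5 nearest profiles per member, 6 set hypoxia-response genes with those within 0.25 of NDRG1, and called regulators and neighbours. Others named, such as PFKFB4, PDK1, EPAS1 and uncalled kinases, were chosen after their values were seen. Marker lists for kidney, neural, blood, endothelial and muscle cells are reported once. Total counts limit precision, and intervals cover counting error only.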

Additional observations from a re-analysis of the deposited data

How the results depend on the processing

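The call of NDRG1 depended on the replicate block. Without it, edgeR called 0 genes, 0 NDRG members and 0 hypoxia-response genes, with 22 genes at an unadjusted p under 0.05. DESeq2's Wald test without the block, an alternative chosen after seeing the data, called 6 genes, 0 NDRG members and 1 hypoxia-response gene. With the replicate block, NDRG1 was the 1 member called in every alternative run, with log2 changes from -1.98 (DESeq2 size factors or Wald test) to -1.96 (mean of at least 20 counts). DESeq2's blocked Wald test called 1215 genes (487 higher, 728 lower) against 756 (183 higher, 573 lower) in edgeR, and gave no adjusted p for NDRG2 or NDRG4. Leaving out a library with the block kept leaves the other pair and no test. NDRG1 then changed by -2.11 to -1.76, and NDRG4 by -0.34 to 0.24. Leaving out a library without the block left 0 to 0 calls of genes, members and hypoxia-response genes, with 1 to 11 genes at an unadjusted p under 0.05 in edgeR. NDRG1 then changed by -2.48 (without VHL replicate 1) to -1.52 (without VHL replicate 2). In those fits NDRG2 reached -0.10 without VHL replicate 1, NDRG3 -0.022 without VHL replicate 2, and NDRG4 0.80 without VEC replicate 1 and 0.21 without VHL replicate 2, each of opposite sign to its reported value. The median of all genes also moved there, from -0.65 to 0.66. The NDRG1 to paralogue ratios kept their direction in each pair and with 2 added to counts.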
